A study of Mus musculus with 8 samples.

Results

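Acvr1c encodes ALK7, a type I receptor of the activin branch of the TGF-beta family that is found in fat cells. It was studied together with 8 genes that act around it: the type I receptor gene Acvr1b, the type II receptor genes Acvr2a and Acvr2b, the ligand genes Inhba, Inhbb and Gdf3, and the follistatin genes Fst and Fstl3. These 9 genes were found through the RefSeq accession of each array probe, and 12 probes belong to them. All 9 are among the 25139 gene names that were kept for the test. Acvr1c was chosen for its fall in this same comparison, and the others as its sister receptors, ligands and inhibitors. Their ratios, intervals and place past or short of a threshold are therefore a description of these samples and no independent test.

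The 8 samples came from white fat of mice 5 weeks old (strain 129 × C57BL/6, fed regular chow) and were hybridised to Agilent arrays in 2 colours. Wild-type (WT) samples, 4 in number, stood against 4 called Ad/NICD, with overexpression of N1ICD, the part of Notch1 that acts in the nucleus. Each of the 4 arrays carried 1 WT and 1 Ad/NICD sample with the same replicate number, as the scanner tables of the 2 samples were identical. Neither the promoter of the transgene nor the depot or the sex of the mice was stated in the sources used.

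A ligand of this pathway is a dimer that binds a type II receptor, which then activates a type I receptor. The type I receptors ALK4, encoded by Acvr1b, and ALK7 phosphorylate Smad2 and Smad3, which enter the nucleus with Smad4. Activin A is made from Inhba and activin B from Inhbb, and follistatins bind activins and keep them from their receptors. In adipocytes ALK7 responds to activin B and GDF3, and its signalling is known to hold back the breakdown of stored fat.

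Signs are given for Ad/NICD over WT with red (Cy5) as Ad/NICD, which is the likely direction. In the authors' value table each WT column held the green channel of its array and each Ad/NICD column the red one. The protocol for labelling assigns Cy3 to control RNA and Cy5 to test RNA, but the dye named for each sample has WT as Cy5. If the latter were right, every sign would turn and the genotypes of all levels would change places. Notch1 and 7 genes commonly named as Notch targets were read as a list written after values were seen. In the direction used here 6 of 8 had a mean ratio above 0, with a median of 0.31, where 12165 of all 25139 gene names did. As the list was written with values known, this count describes it and does not test the direction. Heyl, a Notch target of the Hey family, had 2.30, 3.21, 2.76 and 3.22. It was the 1 gene of these 8 past limma's threshold, where 0.0477% of all gene names passed. Hey1 had a mean of -0.20 and Dtx1 of -0.07. Notch1 had a mean of 0.36, from ratios of 1.24, 0.35, -0.01 and -0.14, above 0 on 2 of 4 arrays. No array had its dyes swapped, so dye and genotype cannot be told apart for a single probe.

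The promoters of 3 receptor genes are shown because Acvr1c and its sister receptors differed in their values. Each is given up to the outermost base that RefSeq annotates as part of the gene (build GRCm38.p6), on the gene's own strand. Capitals mark CACGTG or CACGCG, letters that factors of the Hey and Hes families, which Notch induces, can bind. The stretch of Acvr1c lies at chr2:58357897-58358008 on the minus strand, that of Acvr1b at chr15:101173822-101174071 on the plus strand, and that of Acvr2a at chr2:48813859-48814108 on the plus strand.
Acvr1c: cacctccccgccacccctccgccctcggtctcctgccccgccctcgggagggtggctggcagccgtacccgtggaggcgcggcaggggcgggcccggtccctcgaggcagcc
Acvr1b: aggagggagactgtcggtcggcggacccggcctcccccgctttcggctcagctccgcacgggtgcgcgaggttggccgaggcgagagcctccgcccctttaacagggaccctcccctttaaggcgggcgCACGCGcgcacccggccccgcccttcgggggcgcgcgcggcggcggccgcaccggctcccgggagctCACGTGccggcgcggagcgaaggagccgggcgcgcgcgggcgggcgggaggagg
Acvr2a: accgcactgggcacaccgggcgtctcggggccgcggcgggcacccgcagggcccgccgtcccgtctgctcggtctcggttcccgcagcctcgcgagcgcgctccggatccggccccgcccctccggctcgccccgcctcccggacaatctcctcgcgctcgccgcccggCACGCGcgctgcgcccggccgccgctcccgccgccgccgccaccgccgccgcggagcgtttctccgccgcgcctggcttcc
These stretches were rich in G and C, at 80.4% for Acvr1c, 78.8% for Acvr1b and 82% for Acvr2a. RefSeq's table has 8 windows for 7 of the 9 genes, each of 250 bases before a start site and 50 after it. The letters CACGTG or CACGCG, on either strand, were in 3 of the 8 windows, those of Acvr1b, Acvr2a and Acvr2b, and in neither of the Acvr1c windows. Over all promoter windows in the table the share with a match was 15.4%. GTGGGAA, the letters bound by RBPJ, the DNA-binding partner of the Notch intracellular domain, were in 0 of the 8 windows on either strand, against 6.38% of all windows. A match is a description of letters and not a site in use, and both searches cover these windows alone.

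Acvr1c was lower in Ad/NICD fat on every array. Its log2 signals in the WT samples of replicates 1 to 4 were 10.82, 10.80, 10.88 and 11.37, and in the Ad/NICD samples 9.43, 8.88, 8.98 and 9.74. The highest Ad/NICD sample lay below the lowest WT sample, so the groups did not overlap. The 4 log2 ratios were -1.40, -1.92, -1.90 and -1.63, with a mean of -1.71 ± 0.109 (SE of the limma fit, n = 4 arrays), a fold of 3.28. A drop of 2-fold or more on each of the 4 arrays was found for 0.127% of all gene names, and Acvr1c stood at rank 41 from the lowest mean ratio. The second Acvr1c probe, for the same transcript accession, gave -1.31, -1.84, -1.92 and -1.40, with a mean of -1.62. Levels of the 2 probes followed each other over the 8 samples (Pearson r = 0.995), which share their RNA and array. Both probes were well above background in both channels on all 4 arrays.

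**Figure D1:**
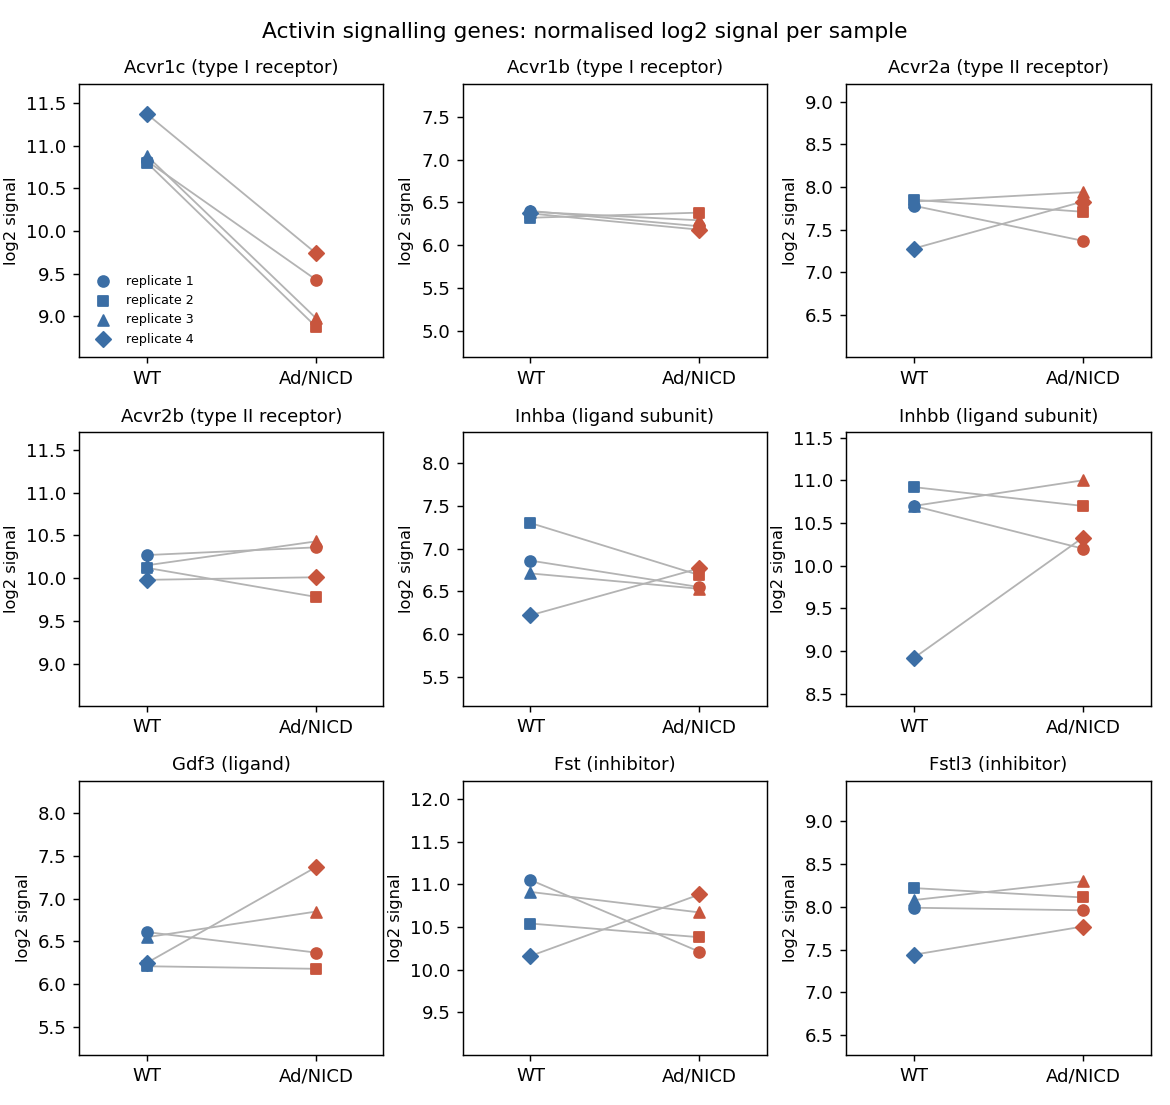
Normalised log2 signal (y axis) of the 9 activin signalling genes in each WT (blue) and Ad/NICD (red) sample, with a grey line joining the samples of 1 array and a marker shape for each replicate number. Each panel spans the same range of log2 units, and the Acvr1c samples separate by genotype, from 10.80 to 11.37 in WT and from 8.88 to 9.74 in Ad/NICD, while the groups of the other 8 genes overlap.

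The sister receptors had mean ratios near 0. Acvr2b, a type II receptor through which activins and GDF ligands signal, had log2 signals of 10.27, 10.12, 10.15 and 9.98 in WT and 10.36, 9.78, 10.43 and 10.01 in Ad/NICD. These groups overlapped, and the mean ratio was 0.01 ± 0.112 (95% limma interval -0.27 to 0.30). Acvr2a, the other activin type II receptor, had 7.78, 7.85, 7.83 and 7.28 in WT and 7.37, 7.71, 7.94 and 7.83 in Ad/NICD. Its mean ratio was 0.03 ± 0.163 (95% limma interval -0.38 to 0.44), and its dimmer second probe gave 0.06. With median centring in place of loess, the means were -0.50 for Acvr2b and -0.32 for Acvr2a.

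Acvr1b, the other activin type I receptor, was dim, with WT signals of 6.40, 6.32, 6.39 and 6.37 and Ad/NICD signals of 6.22, 6.38, 6.29 and 6.18. In the red channel it was well above background on 3 of 4 arrays. The mean ratio was -0.10 ± 0.0699 (95% limma interval -0.28 to 0.07). The offset of 50 that is added to every background-corrected signal pulls ratios of dim probes toward 0. With the scanner's own processed signals, which have no such offset, the 4 Acvr1b ratios were -1.27, 0.17, -0.69 and -0.56, with a mean of -0.59 ± 0.592 (SD, n = 4). How far Acvr1b differed between the genotypes thus could not be settled at this signal.

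Set against the mean of Acvr2a and Acvr2b on the same array, Acvr1c was lower by a log2 difference of -1.74 ± 0.372 (SD, n = 4 arrays), with -1.24, -1.69, -2.10 and -1.92 on the 4 arrays. With the scanner's processed signals this difference was -1.84 ± 0.498. Against Acvr1b the size of the difference depended on the dim Acvr1b probe. It was -1.61 ± 0.347 with the offset and -1.21 ± 0.863 with the processed signals, which gave -0.10 on the array of replicate 1. These are differences between changes, not between the levels of the genes.

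Inhbb, the gene of the activin B subunit, was bright, and its ratio varied widely between arrays, with an SD of 0.839 over the 4. With the scanner's processed signals the SD was 0.882, below the 1.38 of Inhba and the 1.42 of the Gdf3 probe that stood for its gene, both dim. Its WT signals were 10.70, 10.92, 10.70 and 8.92, and its Ad/NICD signals 10.20, 10.70, 11.00 and 10.33. The WT sample of replicate 4 was low by itself, and the groups overlapped. The ratios were -0.50, -0.21, 0.30 and 1.41, with a mean of 0.25 ± 0.322 (95% limma interval -0.56 to 1.06), and the mean was -0.14 without replicate 4. With median centring of each array in place of loess it was -0.26.

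Inhba, the gene of the activin A subunit, had dim signals of 6.86, 7.30, 6.71 and 6.22 in WT and 6.55, 6.69, 6.53 and 6.77 in Ad/NICD. The WT samples spread more widely than the Ad/NICD samples, which lay inside their range. The mean ratio was -0.14 ± 0.195 (95% limma interval -0.63 to 0.36), with 0.55 on the array of replicate 4 and negative values on the others. The mean was -0.37 without replicate 4 and 0.02 without replicate 2.

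Gdf3, a ligand that signals through ALK7, was dim as well. Its 2 probes were close in brightness. The 1 that stood for the gene had means of 6.40 in WT and 6.69 in Ad/NICD, and the other had 6.48 and 6.60. The probe that stood for the gene had signals of 6.61, 6.21, 6.55 and 6.25 in WT. In Ad/NICD it had 6.37, 6.18, 6.85 and 7.37, where the sample of replicate 4 was highest. The mean ratio was 0.29 ± 0.233 (95% limma interval -0.30 to 0.88), and it was 0.01 without replicate 4. The other Gdf3 probe was higher on 4 of 4 arrays, by a mean of 0.12 ± 0.0798 (SD, n = 4), so the 2 probes differed in how the arrays ranked.

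Fst, the gene of follistatin, had signals of 11.05, 10.54, 10.91 and 10.16 in WT and 10.21, 10.38, 10.67 and 10.88 in Ad/NICD. The groups overlapped, and replicate 1 was highest in WT and lowest in Ad/NICD, with replicate 4 the reverse. The ratios ran from -0.85 on the array of replicate 1 to 0.73 on that of replicate 4, with a mean of -0.13 ± 0.251 (95% limma interval -0.76 to 0.51). The mean was 0.11 without replicate 1, -0.41 without replicate 4 and -0.64 with median centring. Fstl3, a follistatin-like protein that binds activins, had 7.99, 8.22, 8.08 and 7.44 in WT and 7.96, 8.11, 8.30 and 7.77 in Ad/NICD. Its mean ratio was 0.10 ± 0.0939 (95% limma interval -0.14 to 0.34), and -0.30 with median centring, a scaling that moved the median of all gene names from -0.006 to -0.319.

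**Figure D2:**
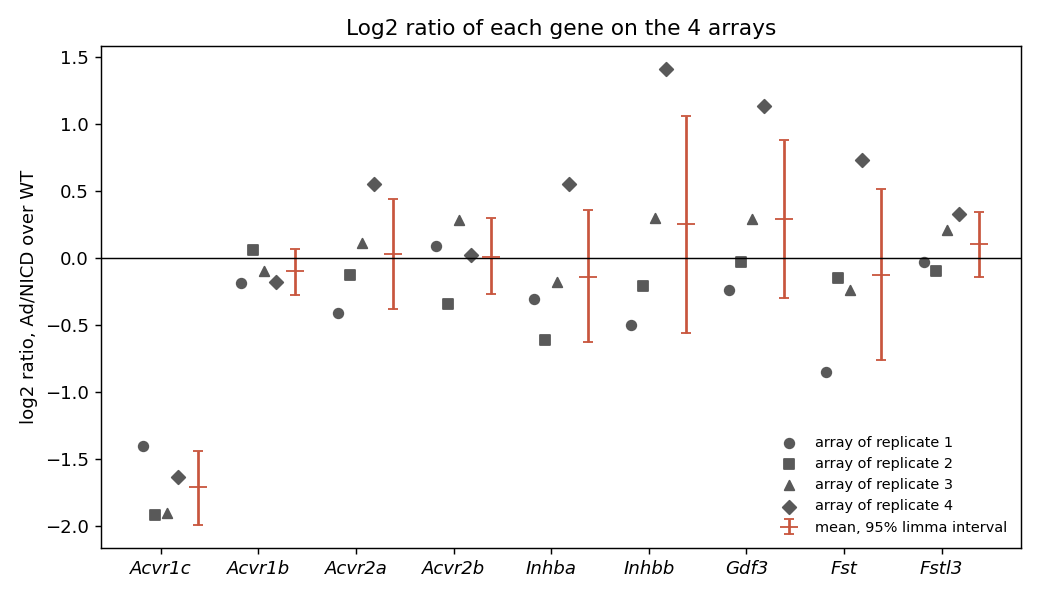
Log2 ratio of Ad/NICD over WT (y axis) for the 9 genes, with 1 grey marker for each of the 4 arrays and, in red, the mean with its 95% limma interval. The 4 Acvr1c ratios lie between -1.92 and -1.40, while the intervals of the other 8 genes include 0.

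Of the 9 genes, 1 passed the threshold of 0.05 on limma's adjusted p in either direction, the Acvr1c that was chosen for it, where 0.0477% of all gene names did and 0.0199% did as lower. Acvr1c had an adjusted p of 0.112 without replicate 1, 0.207 without replicate 2, 0.405 without replicate 3 and 0.0549 without replicate 4, while its mean ratio stayed between -1.82 and -1.64. With all 4 arrays the adjusted p was also over the threshold in 6 alternatives, from 0.0524 (mean of the probes of a gene) to 0.432 (eBayes trend and robust settings). Groups that did not overlap were found for 1 of the 9, again Acvr1c, against 9.83% of all gene names. The same sign on 4 of 4 arrays was found for 1 of the 9, against 24.5% of all gene names, and 13.3% for lower alone. The median of the other 8 mean ratios was 0.02, beside -0.0059 over all gene names. As the members were chosen on this comparison, these counts describe them and support nothing further.

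A pattern over the arrays was shared by several of the other 8 genes. The highest of the 4 ratios was on the array of replicate 4 for 6 of the 8 (Acvr2a, Inhba, Inhbb, Gdf3, Fst and Fstl3), as it was for 33.9% of all gene names. The lowest WT level was in replicate 4 for 6 of the 8 (Acvr2a, Acvr2b, Inhba, Inhbb, Fst and Fstl3), against 31.6% of all gene names. The pair of replicate 4 stood apart in other genes too. Xist, the RNA of the inactive X chromosome, had 6.12 and 5.87 there and 10.15 to 10.45 in the other 6 samples, and it is made in cells with an inactive X, as in females. Skeletal muscle markers had a median log2 level of 13.34 in the WT sample of replicate 4 and of 7.53 to 9.69 in the other WT samples. Mammary epithelium markers had 6.43 and 6.55 in the replicate 4 samples and 9.40 to 10.60 in the others. Progenitor markers had a median of 12.61 in the WT sample of replicate 4 against 13.15 to 13.75 in the other WT samples. What these differences contribute to the activin genes was not tested. The Acvr1c ratio was -1.63 on the array of replicate 4 and its mean was -1.74 without it.

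**Figure D3:**
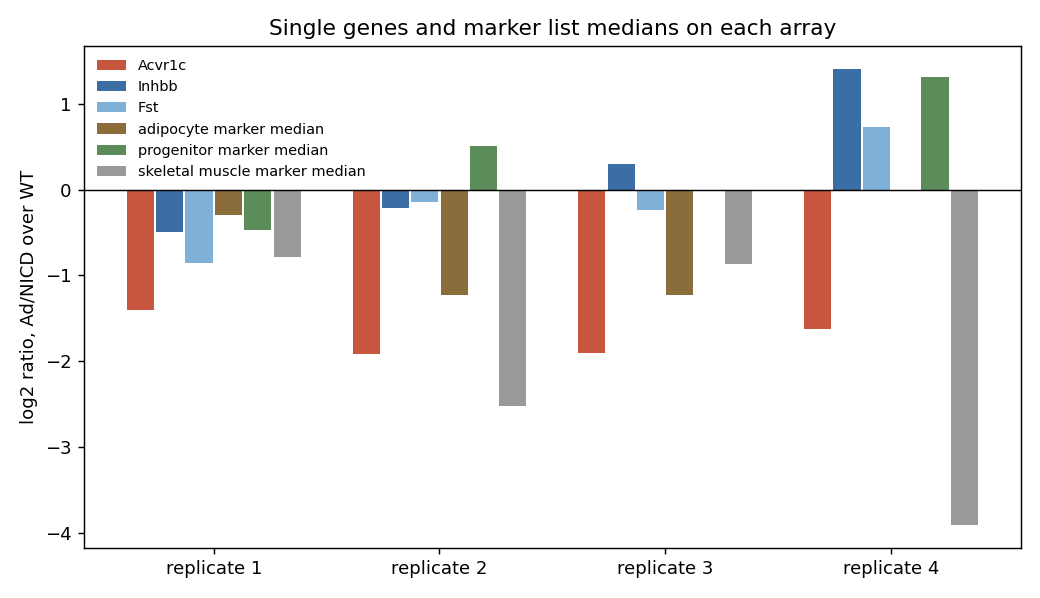
Log2 ratio of Ad/NICD over WT (y axis, bars from 0) on the array of each replicate for Acvr1c, Inhbb and Fst, and the median ratio of the adipocyte, progenitor and skeletal muscle marker lists. Acvr1c is lower on all 4 arrays, whereas Inhbb and the progenitor median are highest on the array of replicate 4, at 1.41 and 1.31, and the adipocyte median is near 0 there.

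The defining markers of fat were present: in WT the mean log2 signal was 15.38 ± 0.385 for Adipoq, the adiponectin gene, and 14.50 ± 0.251 for Plin1, which coats lipid droplets (SD, n = 4). Acvr1c is itself a gene of fat cells, and in bulk tissue fewer adipocytes and less RNA per adipocyte cannot be told apart. All 16 genes of the adipocyte list were measured, and 0 passed limma's threshold over all gene names, with 3 past it when the array was a random block, a fit that called 2% of all gene names. Their median ratio was -0.68, with 13 of 16 below 0, beside 51.6% of all gene names below 0. The log2 of the summed signal of the list ran from 18.5 to 19 in WT and from 17.5 to 18.4 in Ad/NICD. Adrb3, the beta-3 adrenergic receptor, had -1.87 ± 0.225, the resistin gene Retn -1.83 ± 0.386 and Cfd, which encodes adipsin, -1.43 ± 0.375. Of the 16, Adrb3 and Retn had a lower mean ratio than Acvr1c, and Adrb3 alone was lower by 2-fold or more on 4 of 4 arrays. Lower values on 4 of 4 arrays were found for 7 of the 16, against 13.3% of all gene names. Groups did not overlap for 6 (Cidec, Cfd, Retn, Adrb3, Cebpa and Adig), all lower, against 9.83% of all gene names in either direction. Acvr1c thus shared both traits with a part of this list.

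Acvr1c and the adipocyte list both had their lowest ratios on the arrays of replicates 2 and 3. They differed in the size of the fall and in its spread, with an SD over the 4 arrays of 0.25 and 0.629. For replicates 1 to 4 the list had median ratios of -0.30, -1.23, -1.23 and -0.01. Acvr1c minus that median was -1.09, -0.69, -0.68 and -1.62, with a mean of -1.02 ± 0.442 (SD, n = 4). On the array of replicate 4, 0 of the 16 markers had a ratio as low as that of Acvr1c, and on the other arrays 2 or 3 did. The 3 markers with a mean ratio above 0 were Pparg, a transcription factor needed to form fat cells, with 0.09 ± 0.102, Fabp4, a fatty acid carrier, with 0.13 ± 0.155, and the leptin gene Lep, with 0.19 ± 0.0921.

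Markers of other cells are given beside this for their whole lists, at 0 members past limma's threshold each. Among all gene names 0.0477% passed it and 51.6% had a mean ratio below 0, so counts of 0 in lists this short say little. With the array as a random block 1 of these markers passed, where 2% of all gene names did. It was the endothelial tight junction gene Cldn5 (-1.21 ± 0.143, adjusted p = 0.0314 in the random block fit). The medians were -0.37 for 7 endothelial genes (7 below 0), -2.05 for 7 skeletal muscle genes (7 below 0), -0.47 for 6 mammary epithelium genes (6 below 0), -0.46 for 4 B cell genes (4 below 0), 0.34 for 7 progenitor genes (7 above 0), 0.13 for 8 macrophage genes (5 above 0) and -0.08 for the 2 measured of 4 mesothelium genes. The log2 of the summed signal of the muscle list ran from 11.1 to 16.8 in WT and from 9.9 to 12.7 in Ad/NICD. Those of the endothelial list ran from 13.9 to 14.2 and from 13.1 to 13.8, those of the progenitor list from 15.5 to 16.8 and from 16.3 to 16.8, and those of the macrophage list from 14.3 to 15.1 and from 14.4 to 15.1. The mammary list ran from 9 to 14.6 and from 9.06 to 14.8, the B cell list from 13.8 to 14.5 and from 13.3 to 13.9, and the mesothelium list from 7.33 to 7.53 and from 7.3 to 7.37. Their part in the Acvr1c values was not tested.

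The rest of the pathway was read from lists of other ligands, receptors, signal carriers, inhibitors and Smad2/3 target genes. Of 39 such genes 34 were measured, and 0 passed limma's threshold over all gene names, where 0.0477% of all gene names did. With the array as a random block 0 passed too, where 2% of all gene names did. Counts of 0 lie near these shares and do not show that the pathway was unchanged. The smallest adjusted p was 0.136, for Smad2. An unadjusted p under 0.05 was found for 5 of the 34, a share of 14.7% where all gene names gave 15.2%: Tgfb1 higher, and Tgfbr1, Wfikkn2, Smad2 and Ccn2 lower. The median ratio of the 34 genes was -0.02, with 20 below 0 and 14 above.

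Among the other ligands (8 measured, median 0.07), Tgfb1, the main TGF-beta, had 0.26 ± 0.0988 and Tgfb2 0.26 ± 0.175. Among the other receptors (6 measured, median -0.09), Tgfbr1, the TGF-beta type I receptor ALK5, had -0.26 ± 0.086, and the co-receptor Tgfbr3 had -0.23 ± 0.107. Of the 5 signal carriers (median -0.05), Smad2, which ALK4 and ALK7 phosphorylate, had ratios of -0.37, -0.32, -0.31 and -0.25, with a mean of -0.31 ± 0.0579. Smad4, the partner with which Smad2 and Smad3 enter the nucleus, had 0.20 ± 0.0822. Smad2 was lower on 4 of 4 arrays and its groups did not overlap, but the difference was small and did not pass over all gene names.

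Of the other inhibitors (12 measured, median -0.02), Wfikkn2, which binds GDF8 and GDF11, had -0.19 ± 0.0733, and Tgif1, a Smad co-repressor, -0.18 ± 0.14. Of the Smad2/3 target genes (6 measured, median -0.07), Ccn2, a matrix-associated growth factor, had ratios of -1.03, -1.76, -1.77 and 0.05. Its mean of -1.13 ± 0.327 was the sole one of 2-fold or more among the 34 genes, and the array of replicate 4 did not share it (limma adjusted p = 0.225). Smad7, Skil and Pmepa1, feedback inhibitors that Smad signalling induces, had -0.03 ± 0.108, -0.10 ± 0.0712 and 0.04 ± 0.208. Groups did not overlap for 7 of the 34 (Gdf11, Tgfbr1, Wfikkn2, Smurf1, Ski, Smad2 and Smad4), against 9.83% of all gene names. Of these, Gdf11 and Wfikkn2 were as dim as Acvr1b, with WT means of 6.25 and 6.50, so the size of their differences could not be settled either.

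**Figure D4:**
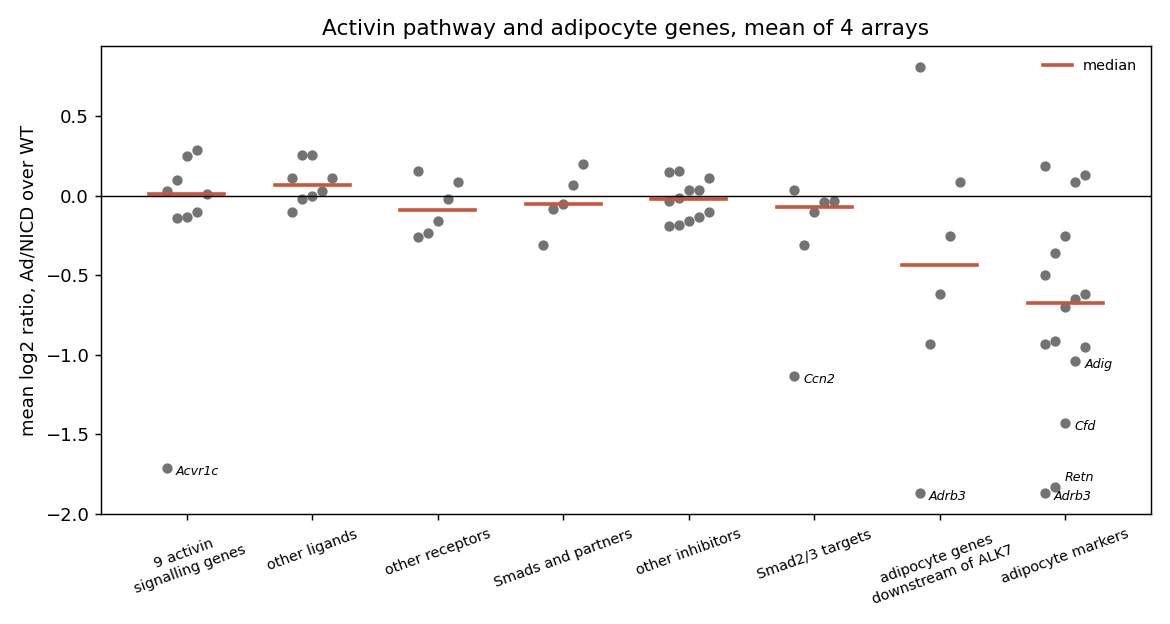
Mean log2 ratio of Ad/NICD over WT over 4 arrays (y axis), with 1 grey point per gene for the 9 activin signalling genes, 5 lists of other pathway genes, the adipocyte genes downstream of ALK7 and the adipocyte markers, where red bars are medians and genes changed by 2-fold or more on average are named. Acvr1c at -1.71 lies apart from the other pathway genes, of which Ccn2 at -1.13 is the next lowest, and the adipocyte markers spread from Adrb3 at -1.87 to above 0.

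ALK7 signalling in adipocytes is known to hold down Pparg, Cebpa, beta-adrenergic receptors and lipase genes, and these 6 genes were read as a list of their own. All 6 were measured, and 0 passed limma's threshold, where 0.0477% of all gene names did. The median was -0.44 with 4 below 0, beside 51.6% of all gene names below 0. Pparg, Cebpa, Adrb3, Lipe and Pnpla2 are also in the adipocyte list, so this median is not separate from the values of that list. Adrb3 had ratios of -2.22, -2.21, -2.04 and -1.01. Its adjusted p in limma was 0.114, and 0.039 with the array as a random block. Cebpa, an adipocyte transcription factor, had -0.79, -1.11, -1.41 and -0.40, with a mean of -0.93 ± 0.173. Adrb1, the beta-1 adrenergic receptor, had 1.12, 0.07, 1.00 and 1.06, with a mean of 0.81 ± 0.195 (limma adjusted p = 0.177). The lipase genes Lipe and Pnpla2 had -0.62 ± 0.132 and -0.25 ± 0.166. The 2 beta-adrenergic receptor genes thus had ratios of opposite sign on all 4 arrays, a difference that was not tested.

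The genes whose levels over the 8 samples were most like those of Acvr1c were sought among 15840 genes with a RefSeq symbol. They were 4930511E03Rik (Pearson r = 0.983), B3galt2, a galactosyltransferase (0.982), Entpd6, a nucleoside diphosphatase (0.979), Ifrd1, an interferon-related developmental regulator (0.978), and Pfkfb1, which makes and breaks the glycolytic signal fructose-2,6-bisphosphate (0.977). Their mean ratios were -0.51, -2.77, -0.63, -0.77 and -0.52. In all 204 genes had an r above 0.9. As each value holds the difference between genotypes, the deviations from the group means were also compared, and gave 0.866, 0.82, 0.859, 0.775 and 0.875 in the same order. These genes were picked for a high r over the same 8 samples, which favours high values here too, so this is no separate check. By the r of the deviations the 16 adipocyte markers, which were not picked by r, ran from 0.119 for Fabp4 to 0.841 for Lipe. It was 0.796 for Adrb3, 0.765 for Retn, 0.737 for Cebpa, 0.344 for Cfd and 0.145 for Adipoq. By the r over the 8 samples themselves the 16 markers ran from -0.427 for Lep to 0.944 for Adrb3. Retn (0.94), Adrb3, Cebpa (0.916) and Adig (0.916) were among the 204 genes above 0.9. The other 8 activin signalling genes ran from -0.861 for Fstl3, -0.758 for Inhbb and -0.711 for Acvr1b to 0.422 for Gdf3. Samples of an array share its hybridisation, and these values describe 8 samples.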

How the data were processed

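Scans were read with Agilent Feature Extraction 11.5, per the submitters' processing notes. The deposited scanner tables hold intensity values per spot (median foreground and background, background-subtracted and processed signals), and a deposited log10 ratio of red over green processed signal. The deposited value table of the authors is on a log2 scale: each column matched the log2 processed signal of 1 channel minus a constant, with column medians of -3.84 to -3.52.

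Here background was corrected with normexp (offset 50) and each array normalised by loess (limma 3.58.1, R 4.3.3). Levels per sample are log2 signals after the distribution of average brightness was made the same on every array (limma's Aquantile method). A probe was kept where 1 channel or both stood well above background on 3 or more of the 4 arrays, which left 34464 of 55681 probes. Between 58.1% and 68.6% of probes were well above background in a channel. The array of replicate 1 lacks these flags, which were rebuilt as a background-subtracted signal above 6 median absolute deviations of the negative controls. That rule gave the scanner's flag for 98.3% to 100% of probes on the other arrays. Accessions were matched to RefSeq symbols (GRCm38.p6, names only) for 28026 probes, and the brightest kept probe stood for a gene name. The 4 ratios of each gene name were tested against 0 (lmFit, eBayes, Benjamini-Hochberg, threshold 0.05), with the array as the pair. Deviations of same-numbered samples from their group means correlated at 0.176, 0.168, 0.562 and 0.528 for replicates 1 to 4. Samples are biological replicates per the labels, with no litter or cage named. The test was checked on simulated data.

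The genes, lists and rules were chosen with earlier results of these data known. Named were all 9 genes with every probe, the pathway genes past the threshold or else the 2 with the largest mean ratio per list, the 3 adipocyte markers with the largest mean ratio, and the 5 genes most like Acvr1c. The values of 1 gene that this rule names are not reported here. Adipoq, Plin1, Xist, Cldn5, the Notch genes, Fabp4, Lep, Pparg, Adrb1, Lipe, Pnpla2, Smad7, Skil and Pmepa1 were added after their values were seen. The number of arrays limits the precision.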

Additional observations from a re-analysis of the deposited data

Results flagged for a closer look

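In 4 of 24 sets of 4 samples of 1 genotype, the sample farthest from the others had a gap to the nearest that passed Dixon's critical value, which chance gives in about 1 in 20 sets. The 24 sets are the 12 probes in each genotype. They share the same 8 samples and are not independent, so their count cannot be weighed against 1 in 20. For Acvr1c the WT sample of replicate 4 was high, at a log2 signal of 11.37 on the brighter probe. The other Acvr1c probe, with 10.86 in that sample, was not flagged. Acvr2a had a low value of 7.28 in the WT sample of replicate 4 on its brighter probe, and a high value of 6.54 in the Ad/NICD sample of replicate 3 on its other probe. Inhbb had a low value of 8.92 in the WT sample of replicate 4. Of the 4 values, 3 belong to the same WT sample, in which skeletal muscle markers were also highest.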

How the results depend on the processing

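Acvr1c was below 0 under all 14 alternatives, from -2.23 (median centring) to -1.64, with -1.82 to -1.64 when each replicate was left out. Many of these could not turn its sign. Changes of the filter, the block or the eBayes settings keep the same ratios, so the mean stayed at -1.71. As every array was below 0, leaving any of them out keeps the sign as well. The limma adjusted p of Acvr1c was under 0.05 in 4 alternatives and over it in 10, from 0.00964 to 0.432. Acvr1c minus the mean of Acvr1b, Acvr2a and Acvr2b was -1.69 and ran from -1.92 to -1.59, and the adipocyte median from -1.01 to -0.50. With probes required above background in both channels on all arrays, Acvr1b was not kept, and the sister mean rests on Acvr2a and Acvr2b. The count of gene names past the threshold was fragile: 12 in the paired fit, 259 with no replicate block and 503 with the array as a random block. It was 4 with the scanner's processed signals, 3 with the authors' value table, and 0 with median centring (9621 at an unadjusted p under 0.05), no filter (5092) or eBayes trend and robust settings (2898). Leaving out each replicate gave 0 to 43, with 0 without replicate 1, 2 or 3. The fits with no block or a random block give the same mean ratios as the paired fit by design, so they say nothing on the directions of the 9 genes. Of the other pathway genes 0 passed under any alternative (2 to 15 at an unadjusted p under 0.05), which includes those where no gene name passed at all. Acvr1b moved to -0.61 with the authors' value table, and Acvr2b to -0.50 with median centring.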
